A study of Homo sapiens with 4 samples.

Results

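Mycophenolic acid (MPA) was compared with no MPA in U87MG cells that had guanosine in the medium on both sides. The members are the genes read on that pair of arrays, 18132 in all, taken from 2 of the 4 arrays in the series. U87MG cells are a long-established line grown from a human glioblastoma. One array came from cells given 10 µM MPA together with 100 µM guanosine for 24 h, and the other from cells given 100 µM guanosine alone for 24 h. The other 2 arrays, cells in DMSO as the control and cells in 10 µM MPA without guanosine, are used to set the same compound's difference beside this one. Every condition was read on 1 array of 1 RNA sample, so a difference is between single samples of one cell line, has no replicate check and carries no p-value. Whether the cells given guanosine also received DMSO is not given in the sources used here.

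MPA inhibits IMP dehydrogenase, the enzyme that turns IMP into XMP on the way to GMP, GDP and GTP. Guanosine enters cells through nucleoside transporters, is split to guanine by purine nucleoside phosphorylase (PNP) and is remade into GMP by HPRT1, a route that does not need IMP dehydrogenase. GTP is a building block of ribosomal RNA, and cells whose nucleolus fails to make ribosomes can stabilise the transcription factor p53 through free ribosomal proteins that bind MDM2. The comparison therefore asks which mRNAs differ with the drug when the salvage route is supplied.

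Almost no gene differed between the guanosine arrays with and without MPA. Of 10599 genes whose brighter array reached a signal of 63.0, the median of all deposited probe set values and used here as a floor for dim genes, 0 passed 2-fold in either direction (0%). At 1.5-fold 2 genes passed (0.0189%), AP1S1 and FER1L6, both lower with MPA. At a log2 difference of 0.32, the smallest fold counted here, 56 genes were higher (0.528%) and 32 lower (0.302%), together 88 genes or 0.83%. When each array was centred on its median these became 43 higher and 45 lower. The median log2 difference over the 10599 genes was 0.02, and 58.9% of them lay above 0 and 40.8% below. MPA against DMSO, a pair that shares no array with this one, had 3.15% of 10951 genes past 2-fold and 33.4% past a log2 difference of 0.32. All counts are of measured values, and in bulk RNA a change in the number of cells that express a gene and a change in RNA per cell cannot be told apart.

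The genes that MPA alone moved most had nearly equal signals on the guanosine arrays. GDF15, a stress cytokine and p53 target, had a signal of 397 in DMSO, 3917 with MPA, 350.5 with guanosine and 363 with both compounds. Only the MPA array stood apart, and the log2 difference between the guanosine arrays was 0.05 against 3.30 between MPA and DMSO. CDKN1A, the cell cycle inhibitor p21, had signals of 1649, 4961, 1373 and 1412 in the same order. Its second probe set differed by 0.10 between the guanosine arrays and by 1.59 between MPA and DMSO. TP53INP1, a p53-induced regulator of stress and autophagy, had 263, 2254, 332 and 340. SESN1, a sestrin that restrains growth signalling, had 206, 1140, 233 and 226. The differences with guanosine present were 0.04 for CDKN1A, 0.04 for TP53INP1 and -0.05 for SESN1. MDM2, the ubiquitin ligase that degrades p53, had 205, 446, 224 and 223, though its 2 other probe sets above the floor stood at 0.28 and 0.06 between the guanosine arrays.

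Genes that were lower with MPA alone showed the same. MYC, a transcription factor that drives ribosome synthesis, had a signal of 791 in DMSO, 284 with MPA, 827 with guanosine and 779 with both compounds, a difference of -0.09 between the guanosine arrays. CCNE2, the cyclin that starts S phase, had 441, 114, 413 and 429. UHRF1, which copies DNA methylation at the replication fork, had 1401, 400, 1202 and 1245. INF2, a formin that assembles actin, had 538, 85.8, 670 and 666. CCNE2 and UHRF1 each differed by 0.05 with guanosine present and INF2 by -0.01, where MPA alone gave -1.96, -1.81 and -2.65. For INF2 that size rests on the probe set used. Its 3 other probe sets above the floor gave -1.02, -0.20 and -0.05 with MPA alone.

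**Figure D1:**
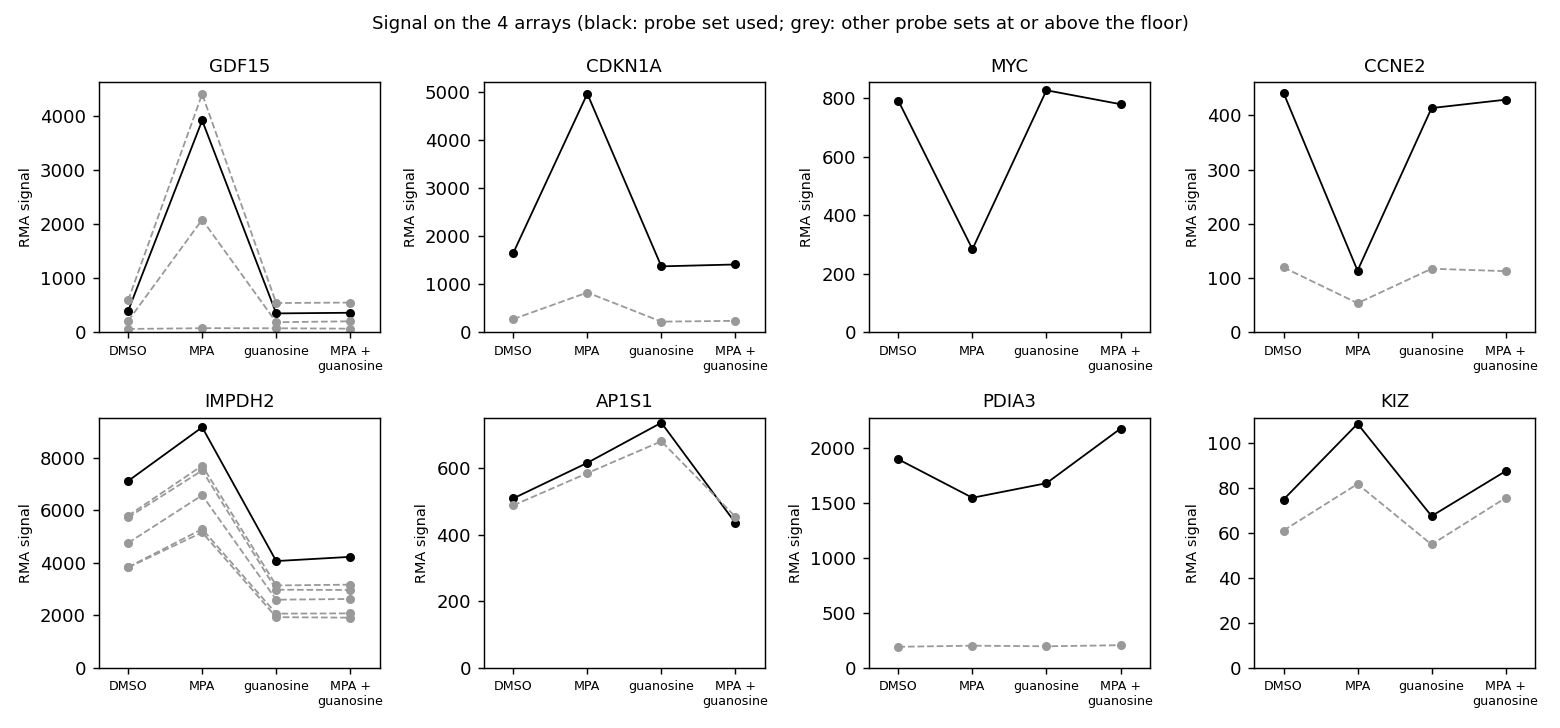
RMA signal (linear, from 0) on the DMSO, MPA, guanosine and MPA + guanosine arrays for 8 genes; black is the probe set used and grey the gene's other probe sets at or above the floor, 1 array per point. GDF15, CDKN1A, MYC and CCNE2 depart from the other arrays on the MPA array, IMPDH2 is lower on both guanosine arrays, and AP1S1 drops from 736 with guanosine to 435 with both compounds.

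Among the 10 highest and 10 lowest genes of MPA against DMSO with both signals of that pair at or above the floor, the largest difference with guanosine present was that of HBEGF, an EGF-family growth factor, at 0.21, from signals of 468 with guanosine and 542 with both compounds. RBM14, an RNA-binding coactivator, followed at 0.12 and RRAD, a small GTPase, at 0.09. The other genes of that set lay closer to 0, among them TP53I3 (0.07), GDF5 (0.07), SUGCT (0.07), TNFSF9 (0.05), PLK2 (-0.01), GAS6-AS1 (-0.00), CDT1 (0.09), GINS2 (0.09), CHAF1A (0.03), CDC25A (-0.05) and CDCA7 (-0.02). Other probe sets at or above the floor departed further from 0 for 6 of these genes: 0.34 for CDCA7, 0.20 for TNFSF9, 0.19 for CHAF1A, -0.15 for SESN1, -0.15 and 0.13 for GDF15, and -0.23 and -0.14 for INF2.

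As whole sets, the 189 genes that MPA alone put past 2-fold upward (1.73%) and the 156 past 2-fold downward (1.42%) had medians of 0.04 and 0.02 with guanosine present, beside 0.02 for all genes entered. Of the 189, 154 reached the floor on a guanosine array, and the median of 0.04 includes the rest. Of the 345, 310 reached that floor, and 0 of the 310 passed 0.32, beside 0.83% of all genes. With no floor 1 of the 189 passed 0.32 in size, at -0.39. Among those with MPA and DMSO signals at or above the floor, the highest with guanosine present were SPINK1, a secreted trypsin inhibitor (just under 0.32, signals of 71.7 and 89.5), C11orf96 (0.30) and the antisense transcript SLC9A3-AS1 (0.29). The lowest were ZNF23 (-0.21), FBXO32, a ubiquitin ligase subunit of muscle atrophy (-0.19), and ATF3, a stress transcription factor (-0.16, signals of 151 and 135). LIN9, left out of these because its MPA signal of 24.9 was below the floor, was the lowest of the 156, at -0.3217. SPINK1, SLC9A3-AS1 and C11orf96 were higher in both comparisons, FBXO32 and ATF3 were higher with MPA alone and lower here, and ZNF23 was lower in both. Sorted into deciles by their MPA difference, genes of the lowest decile (median -0.70) had a median of 0.03 with guanosine present, and those of the highest decile (median 0.58) also 0.03.

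**Figure D2:**
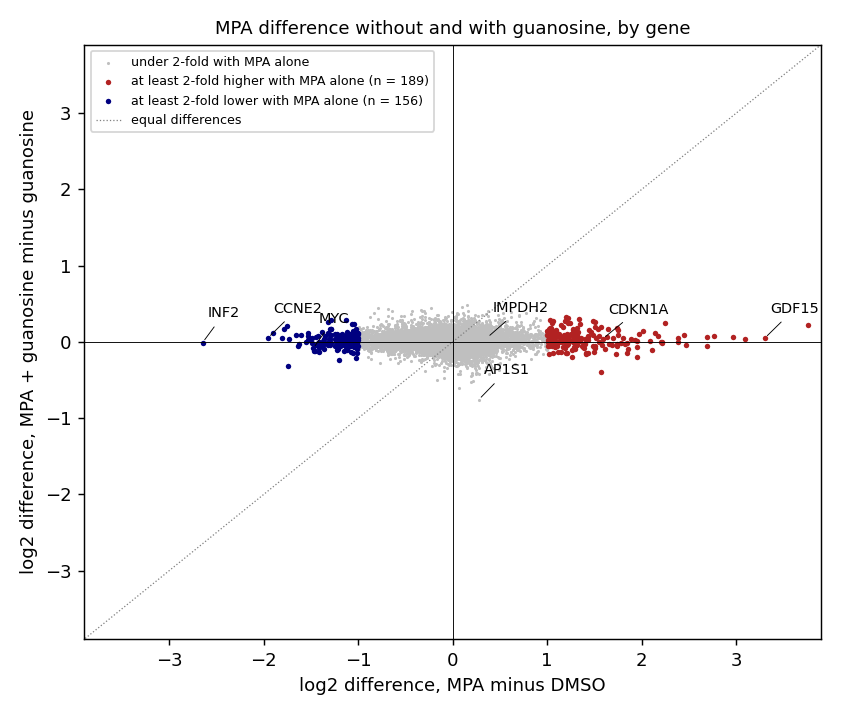
Each point is a gene: x, log2 difference of MPA minus DMSO; y, log2 difference of MPA + guanosine minus guanosine, on equal scales, 1 array per condition. The 189 genes in red and 156 in blue, at least 2-fold different without guanosine, lie in a flat band around 0 on the y axis and not on the dotted line of equal differences.

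How far 2 arrays differed depended on the signal. All 18132 genes were sorted by mean signal on the guanosine arrays and divided into deciles. The standard deviation (SD) of the log2 difference was 0.17 in decile 2 (signals of 14.98 to 22.9), 0.14 in decile 5 (56.1 to 97.9), 0.09 in decile 7 (175 to 309.9) and 0.05 in decile 10, the brightest (1158 to 23353). In decile 10 the middle 95% of genes had ratios between 0.934 and 1.08, and in decile 5 between 0.82 and 1.23. This is the range that 2 single arrays of like cells showed at each level; it is not a spread between replicates. For MPA against DMSO the SD in the same deciles was 1.13 times as large in the dimmest and 6.37 times as large in the brightest.

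Second probe sets give another reading of the same RNA. Of the 6002 genes entered with a further probe set at or above the floor (copies with identical values left out), 56.8% had the same sign on the median of the others, beside 79.6% of 6181 genes for MPA against DMSO. Across these genes, which are not independent replicates and whose probe sets share the RNA and the array, the probe set used and the median of the others had r = 0.17 with guanosine present and r = 0.78 for MPA against DMSO. Among 25 genes with a difference between 0.32 and 0.58 (1.5-fold) here, 17 had the same sign on their other probe sets, with a median of 0.06 there against 0.36 on the probe set used.

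**Figure D3:**
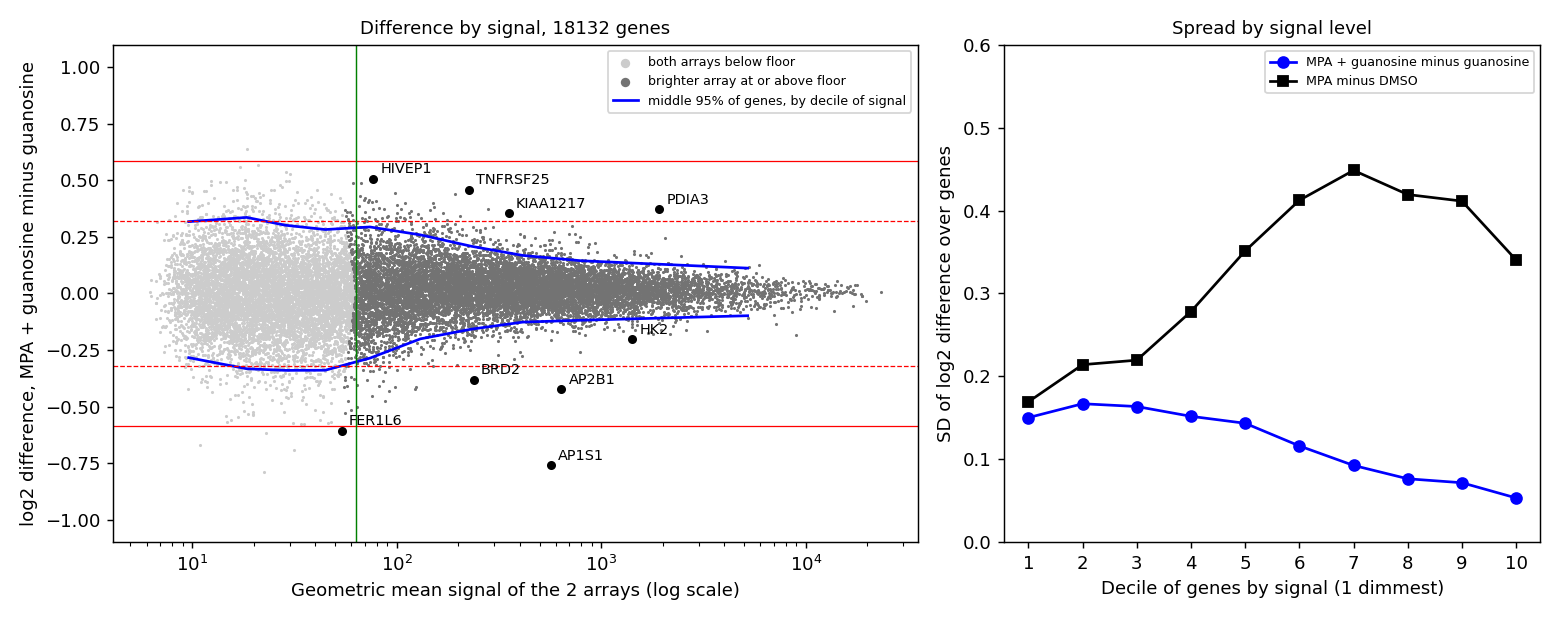
Left: log2 difference of MPA + guanosine minus guanosine against geometric mean signal (log axis) for 18132 genes; blue lines enclose the middle 95% of genes by decile of signal, the green line is the floor of 63.0, and red lines mark log2 differences of 0.32 (dashed) and 0.58, which is 1.5-fold. Right: SD over genes by decile of signal for this pair and for MPA minus DMSO; the first falls from 0.15 to 0.05 and the second is 0.34 in the brightest decile.

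AP1S1, a sigma subunit of the AP-1 clathrin adaptor that sorts cargo between the trans-Golgi network and endosomes, had the largest difference of any gene entered. Its signal was 508 in DMSO, 615 with MPA, 736 with guanosine and 435 with both compounds, a log2 difference of -0.76 (1.69-fold lower with MPA). Its other probe set, which ends in _x_at and so may share probes, had 488, 584, 680 and 453, a difference of -0.58. The guanosine array was the highest of the 4 and the array of both compounds the lowest. The value lay -10.8 SDs from the median of its decile of signal, while MPA against DMSO had the opposite sign, 0.27.

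Another 6 genes passed 0.32 with a brighter array at or above 244, the 75th percentile of all values, and the second probe sets of 4 of them stood below 0.1 in size. PDIA3, a disulfide isomerase of the endoplasmic reticulum that folds glycoproteins, had 1901 in DMSO, 1550 with MPA, 1683 with guanosine and 2180 with both compounds (0.37), and 0.07 on its other probe set. AP2B1, a beta subunit of the AP-2 clathrin adaptor at the plasma membrane, had 740 with guanosine and 552 with both compounds (-0.42), and -0.05 on the other. BRD2, a bromodomain protein that binds acetylated histones, had 272 and 209 (-0.38), and -0.05 on the other. PPFIBP1, liprin beta 1, stood at 0.37 with 5 others between 0.01 and 0.26, and KIAA1217 at 0.36 with 0.07 on 1 other. TNFRSF25, a death domain receptor chosen after its values were seen, stood at 0.46 and had no other probe set at or above the floor.

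Among dimmer genes the second probe sets followed in a few cases. KIZ, a protein that stabilises the spindle pole, had 67.4 with guanosine and 87.4 with both compounds (0.37), and 54.8 and 75.5 on its other probe set (0.46), which again ends in _x_at. MPA alone was also higher than DMSO for KIZ, 108 against 74.8. RESF1, a factor that silences retroelements, stood at 0.33 with 0.31 on the other probe set. EPB41L1, a membrane skeleton protein, stood at -0.42, and its 2 others above the floor at -0.60 and 0.02. VCX2 stood at -0.30 on 2 probe sets whose values were identical, so they count as 1 reading, and its family of near-identical X-linked copies makes the gene uncertain. SUSD4 stood at -0.26 with -0.27 on the 1 other above the floor, but at 0.11 when each array was read as the median of all its probe sets, dim ones included.

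The genes of the highest and lowest sets were chosen for other probe sets with a median of the same sign, so that agreement is no support for them. The remaining higher ones were PTCD2, a mitochondrial RNA-binding protein (0.41, other probe set 0.02), KRABD5 (0.40, other 0.18), DMKN, a secreted epidermal protein (0.37, but 7 others between -0.19 and 0.25), GPR108 (0.35), the transcription factor SP2 (0.33), the SMAD corepressor SKIL (0.33, below the floor with guanosine) and the spindle checkpoint gene MAD1L1 (0.33). The remaining lower ones were LIN9, CNDP2, a cytosolic dipeptidase (just short of -0.32), the chaperone cofactor DNAJB14 (-0.31), DAZAP2 (-0.29), SLC68A1 (-0.28) and AZIN2, an antizyme inhibitor (-0.27). Other probe sets at or above the floor had medians of -0.12 for LIN9, -0.06 for CNDP2 and -0.12 for DNAJB14. Those medians were -0.05 for DAZAP2, -0.06 for SLC68A1 and -0.01 for AZIN2. For CNDP2, DAZAP2, SLC68A1 and AZIN2 the single values took both signs. LIN9, a subunit of the complex that activates mitotic genes, had 83.2 in DMSO, 24.9 with MPA, 64.9 with guanosine and 51.9 with both compounds. Its measured difference of -0.32 is at least 1.03-fold against the floor. FER1L6, a ferlin family gene and the second gene past 1.5-fold, had 66.4 with guanosine and 43.6 with both compounds (-0.61). Measured against the floor it was at least 1.05-fold lower, and no other probe set reached the floor. HIVEP1, a zinc finger factor chosen after its values were seen, was the highest of all at 0.51 (64.5 and 91.6).

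Most differences past 0.32 belonged to dim genes. Of the 88, 81 had a brighter array below 244, and 31 had 1 of the 2 arrays below the floor. Their brighter array had a median signal of 93.8, beside 333 for all genes entered. Of the 88, 22 also passed 0.32 in MPA against DMSO with the opposite sign and 11 with the same sign. In that comparison 33.4% of 10951 genes passed 0.32 in either direction. Over all probe sets at or above the floor, 0.649% of those ending in _s_at passed 0.32 and 1.19% of those ending in _a_at.

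The enzymes of guanine nucleotide synthesis, the pathway of the drug's target, differed by -0.09 to 0.10 between the guanosine arrays. IMPDH2, the isoform named in the series title, had a signal of 7120 in DMSO, 9168 with MPA, 4067 with guanosine and 4228 with both compounds, so both guanosine arrays were below the other 2. The difference between the guanosine arrays was 0.06, and its 5 other probe sets lay between -0.01 and 0.02. IMPDH1, the other isoform, had 1130, 877, 1148 and 1207 (0.07). GMPS, which aminates XMP to GMP, had 2689, 1722, 2423 and 2280 (-0.09). HPRT1 had 2541, 1984, 2545 and 2604 (0.03), and PNP 710, 514, 579 and 621 (0.10). Of 7 genes entered from the guanine nucleotide list 4 were higher and 3 lower, with 0 past 0.32, beside 0.83% of all genes, and a median of 0.03, where MPA alone had a median of -0.36.

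In de novo purine synthesis the median was -0.01 over 9 genes, with PPAT, the committing amidotransferase, at 0.11 and ATIC, which closes the purine ring, at -0.09. GART, a trifunctional enzyme of the pathway, had 626 in DMSO, 359 with MPA, 644 with guanosine and 646 with both compounds. The nucleoside transporters and nucleotidases had a median of 0.003 over 9 genes. In that list SLC29A1, the equilibrative transporter ENT1, was at 0.06, and SLC29A2, ENT2, at -0.16, from dim signals of 91.3 and 81.6. The 17 pyrimidine and deoxynucleotide genes had a median of 0.04, with RRM2B, the p53-induced ribonucleotide reductase subunit, at -0.10 here and 1.26 with MPA alone.

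The lists that MPA alone separated furthest were centred near 0. The p53 target genes had a median of 0.02 over 30 genes, 16 higher and 14 lower, with 0 past 0.32 beside 0.83% of all genes. MPA alone gave them a median of 1.23. The highest here were POLH, a DNA polymerase that bypasses lesions (0.25, signals of 91.8 and 109), SPATA18 (0.24, below the floor with guanosine) and FERMT1 (0.22). The lowest were BBC3, the BCL2-family killer PUMA (-0.14), PPM1D, a phosphatase that ends p53 signalling (-0.14), and RRM2B, a ribonucleotide reductase subunit (-0.10). Their other probe sets followed for BBC3 (-0.16) but not for PPM1D (0.11), RRM2B (0.03) or FERMT1 (-0.11), and that of POLH stood at 0.02. The arrest, feedback and repair genes of the list had a median of -0.003 over 17 genes and the cell death genes one of 0.02 over 9.

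DNA replication and S phase genes had a median of 0.03 over 42 genes, 25 higher and 17 lower, where MPA alone gave -0.98. POLE, the catalytic subunit of the leading strand polymerase, was highest (0.17, 514 and 580), and MCM3, of the replicative helicase, was lowest (-0.15, 1119 and 1011). MCM6, another helicase subunit, had 2039 in DMSO, 739 with MPA, 1981 with guanosine and 1830 with both compounds. G2 and mitosis genes were split 17 higher to 18 lower with a median of -0.002, between NUF2, a kinetochore protein (0.14), and CDC25C, a mitotic phosphatase (-0.10, other probe set 0.09). TPX2, a spindle assembly factor, had 1104 in DMSO, 667 with MPA, 780 with guanosine and 728 with both compounds.

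The nucleolar lists showed the same. Ribosome biogenesis factors had a median of 0.01 over 56 genes, 32 higher and 24 lower, with RRP9, a small nucleolar RNA-binding protein, highest (0.17) and NOP14 lowest (-0.17). NPM1 and NCL, abundant nucleolar proteins, differed by -0.02 and -0.04. The RNA polymerase I machinery had a median of 0.05 over 15 genes, 9 higher and 5 lower. In that list POLR1C was at 0.13, UBTF at 0.09, RRN3 at 0.08, POLR1A at -0.02, POLR1B at -0.11 and TAF1D at -0.12. Other probe sets had medians of -0.16 for UBTF and 0.08 for POLR1B, so neither has a settled direction. POLR1E, a subunit of the enzyme, had 159 in DMSO, 67.5 with MPA, 149 with guanosine and 149 with both compounds. RNA polymerase III genes had a median of -0.02 over 23 genes. The nucleolar and ribosome-linked GTPases, which bind the nucleotide that MPA depletes, had a median of 0.05 over 12 genes, between MTG2 (0.19, other probe sets -0.03) and BMS1 (-0.21, other -0.04). The 48 cytosolic ribosomal protein genes lay between -0.09 and 0.12, with a median of 0.02.

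Over the 29 lists of pathways and complexes, medians with guanosine present ran from -0.06 to 0.07, where MPA alone had medians from -0.98 to 1.23. The 35 lists, markers included, held 694 different genes entered, of which 4 passed 0.32: PDIA3, the cystathionine lyase gene CTH (0.35), the lysosomal amino acid transporter SLC36A1 (0.33) and OLIG2 (0.35, below the floor with guanosine). SLC36A1 had a median of -0.09 over its 3 other probe sets, and CTH had none above the floor. The 4 are a share near the 0.83% of all genes.

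**Figure D4:**
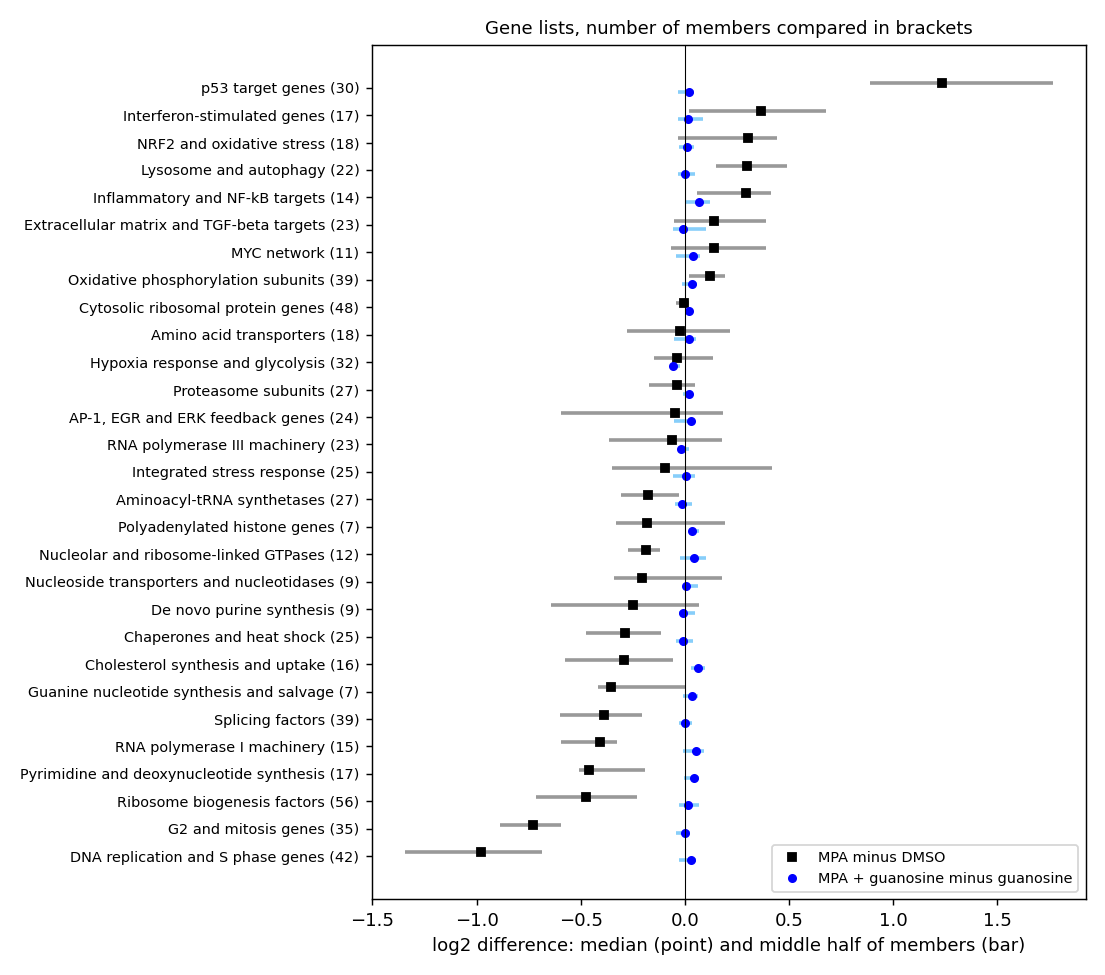
Median log2 difference (points) and quartile range of the members (bars) for 29 gene lists, black for MPA minus DMSO and blue for MPA + guanosine minus guanosine, with the number of members compared here in brackets and 1 array per condition. The blue medians lie between -0.06 and 0.07, and the black ones between -0.98 and 1.23.

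The hypoxia response and glycolysis list had the lowest median of the 29 lists without cell type markers, -0.06, with 27 of 32 genes below 0, or 84.4%, beside 40.8% of all genes. None passed 0.32, beside 0.83% of all genes. These genes are switched on by hypoxia-inducible factors, which bind DNA at core letters such as ACGTG. The differences were small and alike: of the 17 genes other than glycolytic enzymes 16 were lower, between -0.11 for P4HA1, a collagen prolyl hydroxylase subunit, and 0.006 for VEGFA, an angiogenic growth factor. NDRG1 had 1549 in DMSO, 1672 with MPA, 2490 with guanosine and 2387 with both compounds. ANKRD37 had 263, 224, 404 and 386, and the glucose transporter SLC2A1 had 1436, 1544, 2038 and 1898. For these 3 genes both guanosine arrays were above the other 2, and the one without MPA was the highest. The guanosine array was the highest of the 4 for 19 of the 32 genes, 59.4%, beside 15.4% of all genes entered. That array is also the one subtracted here, so its position and the direction of the difference are not separate readings.

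The 15 glycolytic enzymes were less alike, with 11 lower and a median of -0.03. HK2, the inducible hexokinase, was the lowest of the list at -0.20 (1518 with guanosine and 1319 with both compounds), but its other probe set stood at 0.04. PFKM, the muscle phosphofructokinase, was the highest at 0.14, followed by PKM (0.06) and GPI (0.05). GAPDH stood at -0.06, ENO1 at -0.05 and LDHA at -0.01. Taken one by one, 30 of the 32 genes of the list lay within the middle 95% of all genes in their decile of signal, and HK2 and SLC2A1 (-0.10) lay below it. How a list of genes that share regulators would vary between replicate cultures was not tested.

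Promoter windows of this list are shown because 27 of its 32 members were lower. RefSeq windows of 300 bases (GRCh38.p14) were searched for ACGTG on both strands, where CACGT is the same motif on the other strand and CACGTG holds both and is also an E-box. A match was found in 42.6% of 54 windows of list genes entered, 25.7% of 12908 windows of all genes entered and 21.4% of all 35116 windows. A gene can have more than 1 window, and each was counted separately. The list was written to hold genes switched on by factors that bind this motif, so its share is no reading of the differences here. The 3 lowest genes with 1 window and at least 2 matches in the stretch shown were PGK1, a glycolytic kinase (-0.08), ANKRD37 (-0.06) and BNIP3, a mitophagy receptor (-0.06). Capitals mark the matches. Each stretch holds 120 bases upstream of the start site but does not reach it: PGK1 runs from 202 to 83 bases before the start, ANKRD37 from 162 to 43 and BNIP3 from 134 to 15. The stretches are chrX:78104046-78104165 on the + strand, chr4:185396679-185396798 on the + strand and chr10:131981938-131982057 on the - strand.
PGK1: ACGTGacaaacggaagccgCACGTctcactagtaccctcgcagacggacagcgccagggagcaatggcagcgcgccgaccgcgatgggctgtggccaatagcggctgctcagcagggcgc
ANKRD37: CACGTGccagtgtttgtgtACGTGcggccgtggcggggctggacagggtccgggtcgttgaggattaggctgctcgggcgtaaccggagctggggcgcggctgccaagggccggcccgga
BNIP3: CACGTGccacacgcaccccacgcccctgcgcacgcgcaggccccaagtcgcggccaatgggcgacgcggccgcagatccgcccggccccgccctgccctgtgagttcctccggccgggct
A match describes the letters of the window and is no evidence of binding in these cells.

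**Figure D5:**
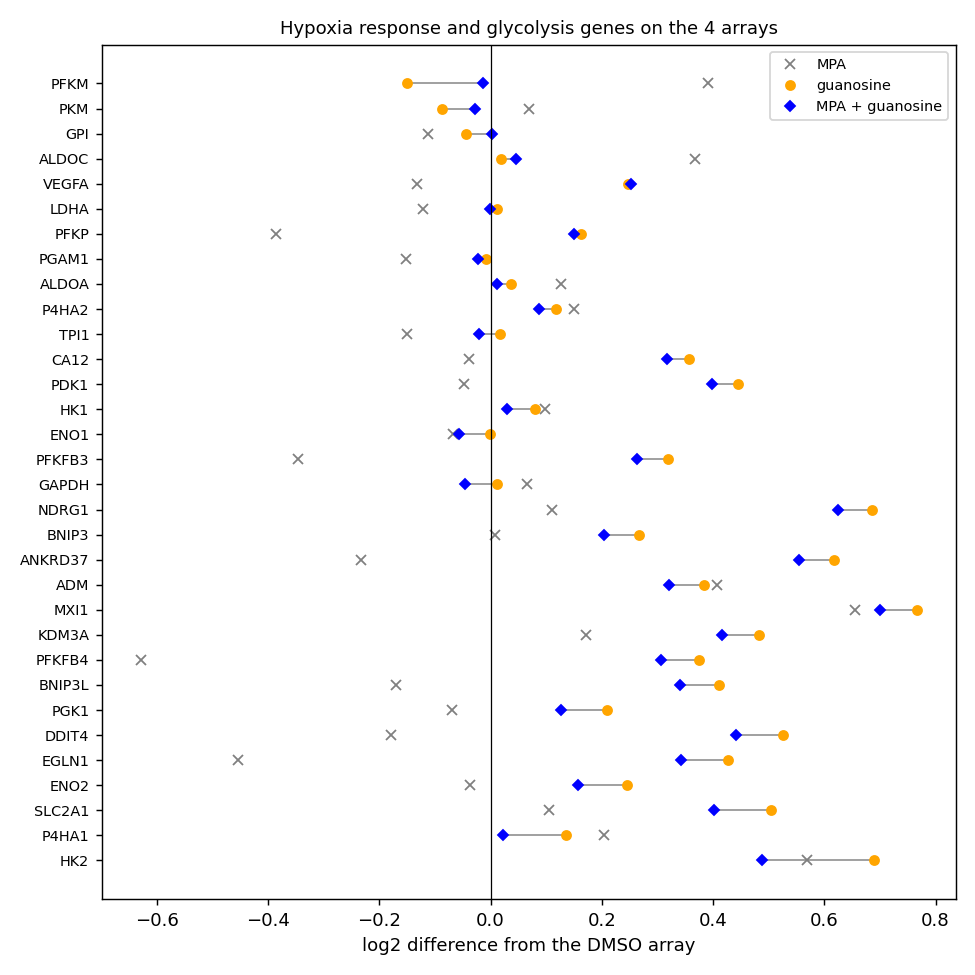
Log2 difference from the DMSO array for the 32 hypoxia response and glycolysis genes entered, on the MPA (cross), guanosine (circle) and MPA + guanosine (diamond) arrays, 1 array each; the DMSO array is shared by all 3. Genes are ordered from HK2 (-0.20 between the guanosine arrays) at the bottom to PFKM (0.14) at the top, and the diamond lies left of the circle in 27 of 32.

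Cholesterol synthesis and uptake genes leaned the other way, with 14 of 16 above 0 beside 58.9% of all genes, a median of 0.06 and 0 past 0.32, beside 0.83%. TM7SF2, a sterol reductase, was the highest at 0.16 from dim signals of 99.4 and 111, but its other probe set stood at -0.33. INSIG1, which holds the sterol sensor in the endoplasmic reticulum, had 2512 in DMSO, 1524 with MPA, 2758 with guanosine and 2894 with both compounds. HMGCS1 (-0.08) and SQLE (-0.05) were the 2 lower genes. Cytosolic ribosomal protein genes were mostly above 0, 38 of 48, but their median was 0.02, beside 0.02 for all genes.

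In the integrated stress response list, which follows the translation factor ATF4, the median was 0.01 over 25 genes. DDIT3, the factor CHOP, had 234 in DMSO, 570 with MPA, 196 with guanosine and 217 with both compounds (0.14). NUPR1, a stress-induced chromatin protein, had 512, 995, 888 and 933 (0.07), and CHAC1, a glutathione-degrading enzyme, was lowest at -0.19. In the MYC network, MAX, the partner of MYC, stood at 0.12 and MXD4, a repressor of the network, at -0.14, for a median of 0.04 over 11 genes.

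Control groups had small median differences between these arrays, of a size like the pathway list medians of -0.06 to 0.07. The median signal over all probe sets was 62.5 with guanosine and 61.8 with both compounds. Over the 12 poly-A spike-in probe sets, which report RNA added before labelling, 10 were higher with both compounds with a median of 0.07. All 9 hybridization spike-in probe sets were lower, with a median of -0.04. The 6 background probe sets of GC 20 and above had a median of -0.07, and the 2 probe sets for 28S ribosomal RNA one of -0.05. The 3 probe sets for 18S ribosomal RNA were all lower, with a median of -0.07. The ACTB 3' minus 5' log2 value, a sign of RNA integrity, was 1.77 with guanosine and 1.89 with both compounds. For GAPDH the same value was 0.09 with guanosine and 0.11 with both compounds. The part of these readings in the small offset between the arrays was not tested.

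Among markers of other cell types that reached the floor, OLIG2 alone passed 0.32. The summed signal of 7 astrocyte markers was 708 with guanosine and 740 with both compounds, that of 6 leukocyte markers 1464 and 1441, that of 7 endothelial and pericyte markers 682 and 738, that of 5 epithelial markers 245 and 233, and that of 7 neuron and oligodendrocyte markers 3076 and 3147. Only 4, 1, 5, 2 and 4 of these reached the floor. The glioma line markers VIM, CD44, NES, SOX2, CHI3L1 and FN1 summed to 35278 and 34565, with 5 of 6 at or above the floor.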

How the data were processed

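The labels describe total RNA from U87MG cells, biotin-labelled target and PrimeView arrays. The deposited values are probe set intensities on the linear scale, made by the authors with RMA per the labels. The scale was read from the values, no centring on a control was found, and the software, settings and annotation used were not given in the sources used here. RMA's quantile step would hide a change in total mRNA per cell. The median intensity was 63.0 with DMSO, 64.5 with MPA, 62.5 with guanosine and 61.8 with both compounds.

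The log2 of each value was taken. Of 49395 probe sets 102 were controls, 44988 others had 1 gene symbol, 1832 had several and 2473 were not listed in the gene table and are unnamed here. Symbols were checked through Entrez IDs in a RefSeq table that held 44961 of them, and 0 changed. Each gene was represented by whichever of its probe sets not ending in _x_at had the highest 4-array mean, even where one ending in _x_at was brighter. The 601 genes with no other used one ending in _x_at. A gene entered a comparison when its brighter array reached the floor of 63.0. No test was possible with 1 array per condition, so counts use folds of 2 and 1.5 and a log2 difference of 0.32. Members and gene lists were chosen with earlier results of these data known.

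Named genes were the 12 highest and 12 lowest whose other probe sets had a median of the same sign, all past 1.5-fold, a set of 13 genes of nucleotide and nucleolar function and the cell cycle, the 3 highest and 3 lowest of each list, and the extremes among genes at least 2-fold different with MPA alone. TNFRSF25, HIVEP1, GART, POLR1E, INSIG1, NUPR1, VEGFA, NDRG1, ANKRD37, PGK1, BNIP3, GAPDH, ENO1 and LDHA fall outside that rule and were chosen after their values were seen. Counting was tested on simulated data. Alternatives were no floor, the 75th percentile as floor, a gene's median probe set value, _x_at probe sets kept, cyclic loess (limma 3.58.1, 3 iterations), median centring, an offset of 16, and only genes whose probe sets all had 1 sign; the brighter genes alone, above the median signal, were added after seeing the data, for the spread. Analysis ran in Python 3.11.15 and R 4.3.3.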

Additional observations from a re-analysis of the deposited data

Results flagged for a closer look

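The largest difference between the guanosine arrays lay outside the genes compared. Among 1941 probe sets at or above the floor that the gene table names with several genes or does not list, 5 passed 1.5-fold, all of them unlisted and all higher with both compounds than on the guanosine array. The log2 differences of the 5 unlisted probe sets were 1.04, 0.92, 0.69, 0.68 and 0.63. The first passed 2-fold and had a signal of 333 in DMSO, 162 with MPA, 208 with guanosine and 427 with both compounds. On each of the 5 the order from high to low was both compounds, DMSO, guanosine, MPA. Some of the 5 have consecutive probe set numbers, and their genes are not named here. Whether the 5 read different transcripts was not tested, so their shared order cannot be counted as 5 independent readings.

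Among the genes named by rule, PTCD2, MAD1L1 and RESF1 passed a log2 difference of 0.32 in opposite directions without and with guanosine. They are not alone in this: of the 88 genes past 0.32 here, 22 did so. With guanosine present PTCD2, MAD1L1 and RESF1 stood at 0.41, 0.33 and 0.33, and MPA against DMSO gave -0.33, -0.88 and -0.44. Other probe sets at or above the floor stood with guanosine present at 0.02 for PTCD2, 0.12 and 0.06 for MAD1L1 and 0.31 for RESF1. Each rests on single arrays, and the difference between the comparisons was not tested.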

How the results depend on the processing

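No gene passed 2-fold (0 higher and 0 lower) with the settings used or under the 8 alternatives. All 8 kept only probe sets with 1 gene symbol, so none could count the unlisted probe set that passed 2-fold, at 1.04. Without a floor 1 gene was at least 1.5-fold higher and 6 lower, and 214 higher and 219 lower passed a log2 difference of 0.32. With the floor at the 75th percentile 1 was 1.5-fold lower, 4 and 3 passed 0.32, and the astrocyte and the endothelial and pericyte medians were 0.23 and 0.23. Each of those medians was the value of a single gene, GLUL for the first and CSPG4 for the second. The other probe sets of GLUL had a median of -0.01. With the median of probe sets 4 were 1.5-fold lower and 33 passed 0.32 upward, the neuron and oligodendrocyte median was -0.036, 71.9% of hypoxia and glycolysis genes were lower, and 17 of 64 named genes changed sign, among them KIZ to -0.042, KIAA1217 to -0.12, AZIN2 to 0.15, SUSD4 to 0.11 and SLC68A1 to 0.001. With _x_at probe sets kept 3 did, DMKN to -0.12, AZIN2 to 0.036 and DAZAP2 to 0.011. With an offset of 16, 1 was 1.5-fold lower and 24 and 17 passed 0.32. With only probe sets of 1 sign these were 1, 13 and 3, the GTPase median was -0.12 and that of amino acid transporters -0.068. The causes were not tested, except that filters change the number of genes. Of the 29 pathway list medians 13 changed sign under an alternative; that of hypoxia and glycolysis stayed between -0.07 and -0.06, and AP1S1 between -0.77 and -0.67. The SD over genes ranged from 0.07 to 0.13. A list median was taken as moved when it shifted by more than 0.08, the robust SD over genes, and a gene when it shifted by more than the SD of its decile of signal. The single array per condition and, for dim genes, the low signal limit every value. No paired analysis was possible because each condition had 1 array.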

Other observations

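The remaining lists also sat near 0 with guanosine present, beside a median of 0.02 over all genes. Splicing factors had a median of 0.002 over 39 genes where MPA alone gave -0.39. HNRNPA1, an abundant splicing repressor, was highest at 0.18, but its 4 other probe sets had a median of -0.03. HNRNPL, a related factor, was lowest at -0.16. Lysosome and autophagy genes had a median of -0.001 over 22 genes, and genes of the oxidative stress factor NRF2 one of 0.01 over 18, where MPA alone gave 0.30 for each. Interferon-stimulated genes had a median of 0.01 over 17 genes, between ISG15, a ubiquitin-like protein (0.15), and OAS2, a sensor of double-stranded RNA (-0.22), where MPA alone gave 0.36. Chaperones had a median of -0.01 over 25 genes, where MPA alone gave -0.29.

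Inflammatory and NF-kB target genes had the highest median of the 29 lists, 0.07, with 10 of 14 above 0, beside 58.9% of all genes, and 0 past a log2 difference of 0.32, beside 0.83%. IL1B, an inflammatory cytokine, was highest at 0.26 and CXCL1, a chemokine for neutrophils, lowest at -0.11. Immediate early genes and their feedback regulators had a median of 0.03 over 24 genes, with SPRY1, an inhibitor of growth factor signalling, lowest at -0.25. Extracellular matrix genes were split 11 higher to 12 lower. COL4A2, a basement membrane collagen, stood at 0.27 there with -0.11 on its other probe set, and LOX, which crosslinks collagen, at -0.18 with -0.06 over 5 others. Oxidative phosphorylation subunits lay between -0.07 and 0.13 over 39 genes, proteasome subunits between -0.06 and 0.07 over 27, and aminoacyl-tRNA synthetases between -0.22 (NARS2) and 0.13 (HARS1) over 27.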
